A study of Mus musculus with 18 samples.

Results

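The transcripts of 10 amino acid transporters of the plasma membrane were followed in mouse CD8+ T cells: Slc7a5, Slc3a2, Slc1a5, Slc1a4, Slc38a1, Slc38a2, Slc7a1, Slc7a6, Slc7a11 and Slc6a19. They were chosen by name and matched to the gene count table through the Ensembl identifiers of GENCODE M21; all 10 were found among 55536 annotated genes. The study held 18 RNA sequencing libraries, 2 labelled Tra2bKO, 8 labelled control and 8 labelled naive. All groups are labelled OT-I, a transgenic T cell receptor that recognises the ovalbumin peptide SIINFEKL, and came from spleen and lymph nodes; receptor counts of the naive libraries went against that label. Tra2bKO and control cells were collected at day 4 after stimulation with SIINFEKL plus antibodies against OX40 and 41BB, which costimulate T cells; the control is described as scrambled. The naive cells are from day 0. Tra2b encodes a splicing factor that binds RNA; the labels call the group a knockout and do not state how it was made.

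Amino acid transporters supply dividing T cells with building blocks for protein and with the signal that keeps the kinase mTORC1 active. CD98, the product of Slc3a2, is a heavy chain that carries several light chains to the cell surface, and the pair exchanges amino acids across the membrane. In T cells, antigen receptor signals are known to raise the leucine carrier Slc7a5 and the glutamine carriers, and shortage of amino acids is known to raise several transporters through the kinase GCN2 and the transcription factor ATF4.

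Total counts ran from 79197461 to 93495846 in the Tra2bKO libraries, from 73735681 to 93972513 in the controls and from 68249844 to 86932452 in the naive libraries. No pair of libraries within a group agreed within counting error, so each was treated as a separate library. The labels do not say that libraries came from separate animals, so a p-value here covers library-to-library spread alone, and that spread may be technical. Levels are CPM, a gene's counts relative to its library's total, scaled by TMM factors, and are given with the SD between libraries. Tra2b itself had 361 and 371 CPM in Tra2bKO libraries, against 338 to 525.9 in controls and 248 to 352 in naive libraries. Control 2 alone lay below both Tra2bKO libraries, and the other controls, at 440 to 525.9 CPM, lay above both. The difference between Tra2bKO and control did not pass the test (log2 fold change -0.34, SE 0.13, edgeR adjusted p = 0.0899). A gene count is no check of an edit that may leave the transcript in place. Trbv12-1, the beta chain segment of the OT-I receptor, held 99.4 to 99.7% of Trbv counts in Tra2bKO libraries, 99.6 to 99.8% in controls and 5.95 to 12.4% in naive libraries. The libraries labelled naive thus did not carry mainly the OT-I receptor. Stimulation and the source of the naive cells can therefore not be told apart in any comparison with the naive group. CD8 T cell markers were abundant everywhere, with summed levels of 6863 to 8024, 7710 to 9068 and 9265 to 10990 CPM in Tra2bKO, control and naive libraries. Controls 1 and 2 had stood apart in an earlier analysis of these data; without both, 3 of the transporters were called for Tra2bKO against control and 8 for control against naive. In these bulk samples, fewer cells of a type and less RNA per cell cannot be told apart.

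Between Tra2bKO and control libraries, 4 of the 10 transporters were higher, 0 were lower and 6 did not pass the test (edgeR's quasi-likelihood test, Benjamini-Hochberg adjusted p under 0.05 over all genes tested). Over all 18651 genes tested, 14.9% were called, 7.62% higher and 7.24% lower. The median log2 fold change of the 10 transporters was 0.37, against -0.01 for all genes; it was 0.09 without the second Tra2bKO library and 0.15 in a fit corrected for exon length and GC content. The called genes were Slc1a4, Slc3a2, Slc38a2 and Slc7a1. Slc1a4 and Slc3a2 lay above every control in both Tra2bKO libraries, and Slc38a2 and Slc7a1 only in the second Tra2bKO library. The share of all genes that lie above every control in both libraries was not counted. Erythroid transcripts moved with this comparison: 5 of 6 markers were higher, the summed level being 13.4 and 133 CPM in Tra2bKO libraries and 0.443 to 17.5 CPM in controls, and their part in the result was not tested.

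Between control and naive libraries, 6 of the 10 were higher, 3 were lower and 1 did not pass the test. Here 71.5% of 17078 genes were called, 32.5% higher and 39% lower, so that 9 of 10 is to be read against a background in which most genes differed. Slc7a5, Slc1a4, Slc38a1, Slc7a1, Slc7a6 and Slc7a11 were higher, Slc1a5, Slc38a2 and Slc6a19 were lower, and Slc3a2 did not pass. The median of the 10 log2 fold changes was 0.26, against -0.08 for all genes. Summed B cell markers were 14.4 to 28.6 CPM in controls and 71.0 to 144 CPM in naive libraries, and NK cell markers 3.36 to 12.3 CPM and 36.6 to 70.0 CPM. Dendritic cell markers summed to 33.8 to 49.8 CPM in controls and 73.6 to 167.5 CPM in naive libraries, and monocyte, macrophage or neutrophil markers to 24.9 to 44.7 CPM and 47.9 to 114.6 CPM. Of the markers tested, 5 of 7 for B cells, 5 of 5 for NK cells, 5 of 6 for dendritic cells and 6 of 7 for myeloid cells were lower in controls. Their part in the differences was not tested.

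Set against the naive libraries, the Tra2bKO libraries had 5 of the 10 higher, 2 lower and 3 not called, where 44.7% of 19776 genes were called, 21.1% higher and 23.6% lower. The 3 comparisons share their libraries in pairs, so they are set side by side below and are not independent of each other.

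**Figure D1:**
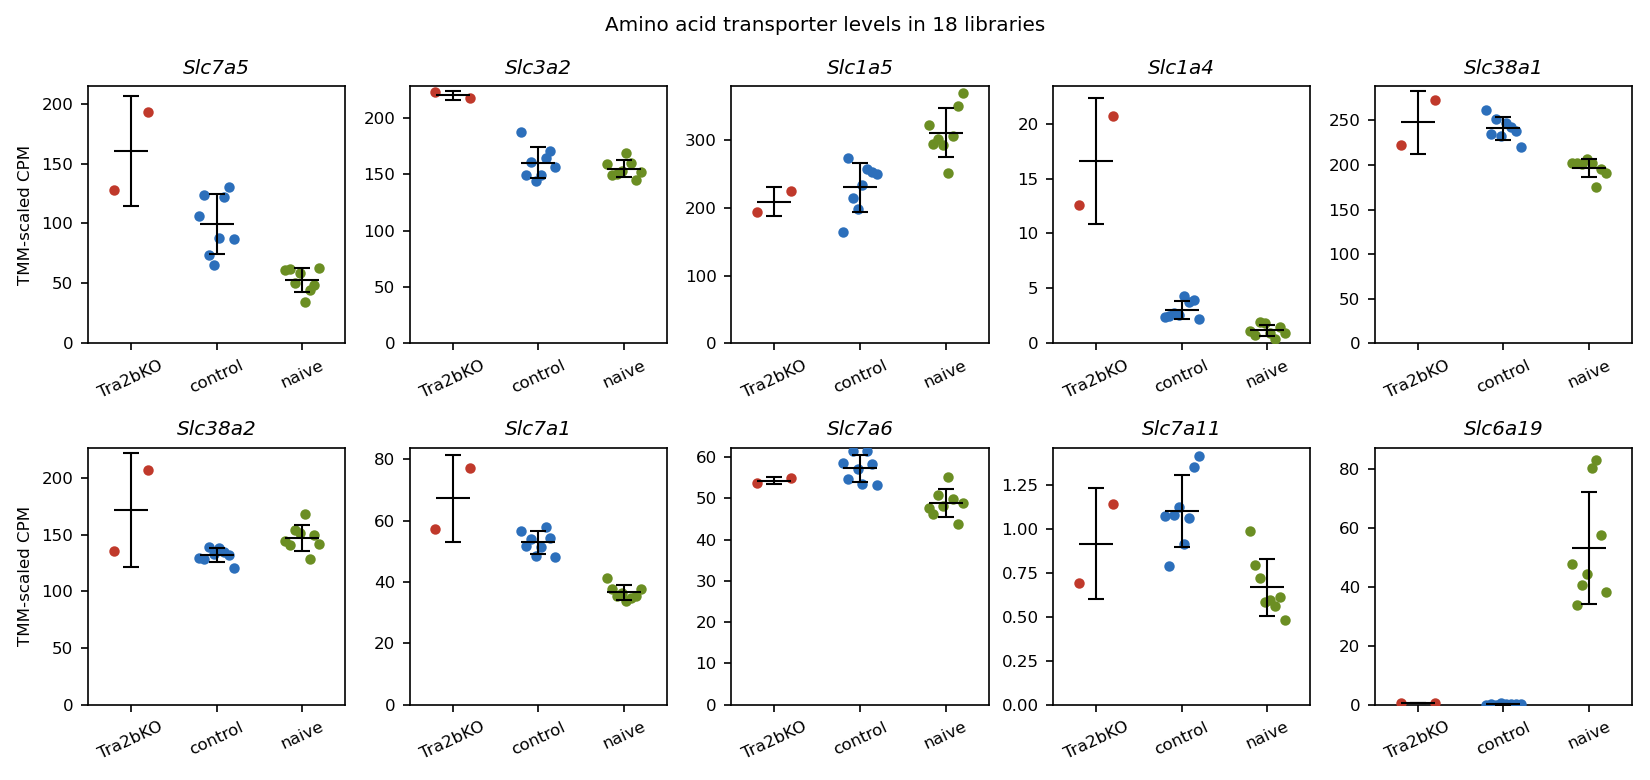
Level of each transporter in every library, in TMM-scaled CPM, with Tra2bKO, control and naive libraries from left to right and the group mean and SD drawn over the points. Slc1a4, Slc3a2 and, from levels below 1 CPM, Slc6a19 stand above all controls in both Tra2bKO libraries. Slc6a19 is high only in the naive libraries.

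The heavy chain Slc3a2 (chromosome 19, 8706882 to 8723369, minus strand, GRCm38) had 223 and 218 CPM in the 2 Tra2bKO libraries, against 144, 159 and 187 CPM (lowest, median and highest) in controls and 145, 153 and 169 CPM in naive libraries. Both Tra2bKO libraries lay above all 16 others, whereas the control and naive ranges overlapped almost entirely. The log2 fold change was 0.46 for Tra2bKO against control (SE 0.08, edgeR adjusted p = 0.00429) and 0.54 for Tra2bKO against naive (SE 0.07, edgeR adjusted p = 6.03e-05). For control against naive it was 0.05 (SE 0.05, edgeR adjusted p = 0.367). The rise in Tra2bKO libraries kept its call without either Tra2bKO library, at 0.43 without the first and 0.49 without the second. Most of its counts were assigned to Slc3a2-201, a coding transcript that starts at an inner exon: 90.2% ± 1.54 in Tra2bKO (n = 2), 83.8% ± 6.02 in control and 84.9% ± 2.41 in naive libraries (SD, n = 8 each). The longer Slc3a2-202 held 8.34%, 13.7% and 11.2%, and the ranges of the 3 groups overlapped.

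Slc7a5 (LAT1, chromosome 8, 121881150 to 121907694, minus strand), the light chain that exchanges leucine and other large neutral amino acids, had 128 and 193 CPM in Tra2bKO libraries, against 64.9, 96.9 and 131 CPM in controls and 34.4, 54.4 and 63.2 CPM in naive libraries. Every stimulated library lay above every naive one, but only the second Tra2bKO library lay above all controls. Control against naive gave a log2 fold change of 0.92 (SE 0.16, edgeR adjusted p = 3.97e-05), and Tra2bKO against naive gave 1.63 (SE 0.19, edgeR adjusted p = 2.82e-05). For Tra2bKO against control the value of 0.69 did not pass the test (SE 0.24, edgeR adjusted p = 0.0705). DESeq2 gave 0.71 and an adjusted p of 0.0206 for the same libraries, and a fit corrected for exon length and GC content gave 0.81 and 0.0383. Without the second Tra2bKO library the value was 0.37 (edgeR adjusted p = 0.606). The control libraries themselves differed by a wide margin, with a mean of 99.6 ± 24.7 CPM, and control 4 was the lowest.

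Slc7a6 (y+LAT2, chromosome 8, 106168857 to 106198706, plus strand), a light chain that exchanges cationic for neutral amino acids, was nearly level. It had 53.6 and 54.8 CPM in Tra2bKO libraries, against 53.3, 57.7 and 61.4 CPM in controls and 43.9, 48.4 and 55.3 CPM in naive libraries. Both Tra2bKO libraries fell inside the control range, and the log2 fold change was -0.07 (SE 0.08, edgeR adjusted p = 0.574). Control against naive was 0.23 (SE 0.05, edgeR adjusted p = 0.000342), with 5 of 8 controls above every naive library. Tra2bKO against naive was 0.18 (SE 0.09, edgeR adjusted p = 0.11), and 0.21 without naive library 5 (edgeR adjusted p = 0.0492). The coding transcript Slc7a6-201 held 86.8% of its counts in Tra2bKO, 85.7% in control and 80.6% in naive libraries. A retained-intron transcript, Slc7a6-207, held 7.27%, 7.26% and 14.4% in the same order, with overlapping ranges.

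Slc7a11 (xCT, chromosome 3, 49892526 to 50443614, minus strand), the light chain that takes up cystine in exchange for glutamate, was present at only 54 and 104 counts in the Tra2bKO libraries. Its level was 0.693 and 1.14 CPM in Tra2bKO libraries, against 0.792, 1.08 and 1.42 CPM in controls and 0.484, 0.605 and 0.991 CPM in naive libraries. The first Tra2bKO library lay below all controls and the second within their range (log2 fold change -0.25, SE 0.28, edgeR adjusted p = 0.601). Controls were higher than naive libraries (0.70, SE 0.18, edgeR adjusted p = 0.00178), and 6 of 8 controls exceeded all naive libraries. Tra2bKO against naive did not pass (0.47, SE 0.31, edgeR adjusted p = 0.25).

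Because a light chain needs the heavy chain to reach the surface, the transcripts were also set against each other per kilobase of transcript length, as a description with no test. The ratio of Slc3a2 to the sum of Slc7a5, Slc7a6 and Slc7a11 was 2.32 and 1.64 in the Tra2bKO libraries, against 1.56, 1.901 and 2.19 in controls and 2.45, 2.81 and 3.34 in naive libraries. Every naive library had more heavy chain per light chain than any stimulated library. The first Tra2bKO library lay above all controls and the second within their range. Slc7a5 made up 70.3% and 76.3% of the light chain sum in Tra2bKO libraries, against 50.1, 60.2 and 66.8% in controls and 36.1, 51.6 and 55.8% in naive libraries. Both Tra2bKO libraries thus held a larger Slc7a5 share than any control.

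**Figure D2:**
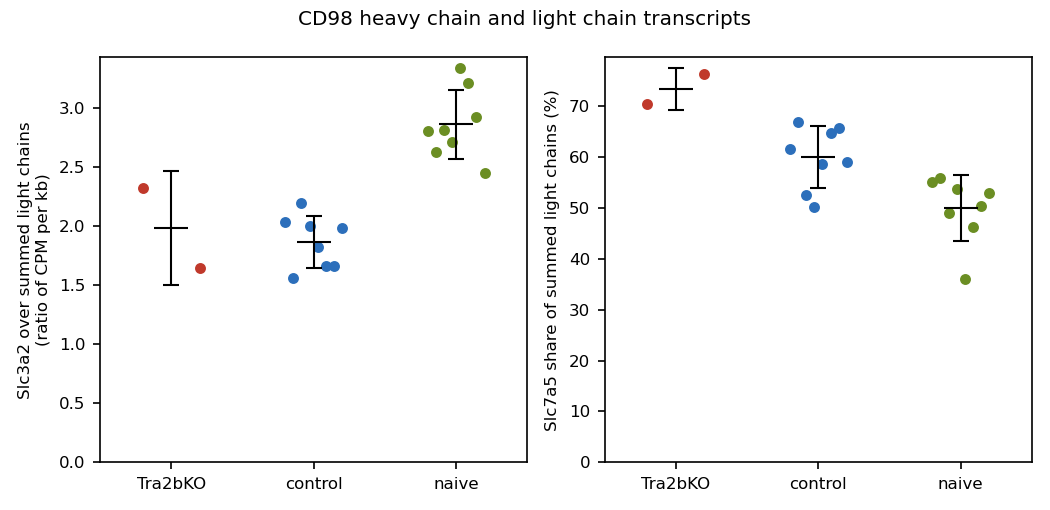
Left, ratio of Slc3a2 to the summed light chains Slc7a5, Slc7a6 and Slc7a11 in CPM per kb of transcript; right, share of Slc7a5 in that light chain sum in percent. Points are libraries and bars show the group mean and SD; naive ratios lie between 2.45 and 3.34, above every stimulated library, and the Tra2bKO shares of 70.3 and 76.3% lie above every control.

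Slc1a4 and Slc1a5 encode the related exchangers ASCT1 and ASCT2, which carry alanine, serine and cysteine, and ASCT2 also glutamine. Slc1a4 (chromosome 11, 20302180 to 20332713, minus strand) showed the largest called difference between Tra2bKO and control libraries among the 10 genes. It had 12.6 and 20.7 CPM in Tra2bKO libraries, against 2.21, 2.66 and 4.33 CPM in controls and 0.386, 1.01 and 1.896 CPM in naive libraries. The 3 groups did not overlap, and they stood in the order Tra2bKO, control, naive. Against control, Slc1a4 rose 5.42-fold in Tra2bKO libraries (log2 fold change 2.44, SE 0.24, edgeR adjusted p = 0.000155). The difference of control from naive libraries was 1.39 (SE 0.26, edgeR adjusted p = 0.000135), and Tra2bKO against naive was 3.85 (SE 0.38, edgeR adjusted p = 8.3e-06). Without the second Tra2bKO library the difference from control was 2.05, and without the first it was 2.74. The split of its counts between the coding transcripts Slc1a4-201 and Slc1a4-202 ran from 0 to 100% among controls and is not read further.

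The sequence at the start of Slc1a4 is shown because this gene carries the clearest difference in Tra2bKO libraries and Atf4 was also higher there, and that of Slc7a11 because it holds the same letters without a difference. The windows are 300 bases around the start of the gene, taken from RefSeq on GRCm38.p6 and read along the minus strand (Slc1a4, chr11:20332664-20332963; Slc7a11, chr3:50443564-50443863). Capitals mark TGATGCAA, the core of a composite element that ATF4 is known to bind, on either strand.
Slc1a4: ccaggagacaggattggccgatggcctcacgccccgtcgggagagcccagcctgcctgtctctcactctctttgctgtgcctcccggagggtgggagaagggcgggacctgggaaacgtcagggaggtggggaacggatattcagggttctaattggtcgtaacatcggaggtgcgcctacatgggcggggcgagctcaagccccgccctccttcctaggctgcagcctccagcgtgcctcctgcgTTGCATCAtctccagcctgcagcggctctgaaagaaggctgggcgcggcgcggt
Slc7a11: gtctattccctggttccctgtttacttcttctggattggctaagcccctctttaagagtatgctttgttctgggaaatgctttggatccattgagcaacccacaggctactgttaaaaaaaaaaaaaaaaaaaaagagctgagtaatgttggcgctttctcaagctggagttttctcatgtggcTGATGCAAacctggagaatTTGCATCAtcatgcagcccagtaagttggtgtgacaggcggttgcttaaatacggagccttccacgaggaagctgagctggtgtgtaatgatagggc
The match in Slc1a4 begins at position -4 from the gene's start, and those in Slc7a11 at -66 and -47. Among all 32851 windows of the table, 294 (0.895%) held TGATGCAA on either strand. The table held 9 windows for 7 of the 10 transporters, and 2 of the 9 had a match. The E-box CACGTG, which MYC and MAX are known to bind and which reads the same on both strands, was in 2349 windows (7.15%) and in 0 of the 9. A match is a description of letters, and its absence says only that they are not in this window. Whether ATF4 acts on Slc1a4 or Slc7a11 in these cells was not tested.

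Slc1a5 (chromosome 7, 16781340 to 16798274, plus strand) went the other way from Slc1a4 in stimulated cells. It had 194 and 225 CPM in Tra2bKO libraries, against 165, 242 and 274 CPM in controls and 252, 304 and 370 CPM in naive libraries. Both Tra2bKO libraries lay within the control range and below every naive library, and 5 of 8 controls lay below every naive library. Control against naive was -0.43 (SE 0.10, edgeR adjusted p = 0.000633), and Tra2bKO against naive was -0.54 (SE 0.13, edgeR adjusted p = 0.00367). Tra2bKO against naive was no longer called without the first Tra2bKO library (-0.47, edgeR adjusted p = 0.053). For Tra2bKO against control the value was -0.14 (SE 0.16, edgeR adjusted p = 0.621).

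Most Slc1a5 counts were assigned to Slc1a5-202, which keeps 1 short intron of the coding transcript. The intron is shown with its flanks because its retention sets the transcript with most of the counts apart from the coding one (chr7:16795938-16796038, plus strand, GRCm38, GENCODE M21 transcripts); capitals mark its 71 bases.
Slc1a5: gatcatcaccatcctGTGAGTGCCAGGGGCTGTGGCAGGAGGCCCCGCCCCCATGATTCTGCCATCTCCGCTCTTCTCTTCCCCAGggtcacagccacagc
Slc1a5-202 held 82.9% and 59.2% of the gene's counts in Tra2bKO libraries, against 38.2 to 87.4% in controls and 55.7 to 91.8% in naive libraries. The group means were 71.1% ± 16.8 (n = 2), 66.4% ± 21.8 and 66.2% ± 11.2 (SD, n = 8 each), and the ranges overlapped throughout. The coding Slc1a5-201 held 27.7%, 32.4% and 32.5%. These are estimates for transcripts that share nearly all their bases.

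**Figure D3:**
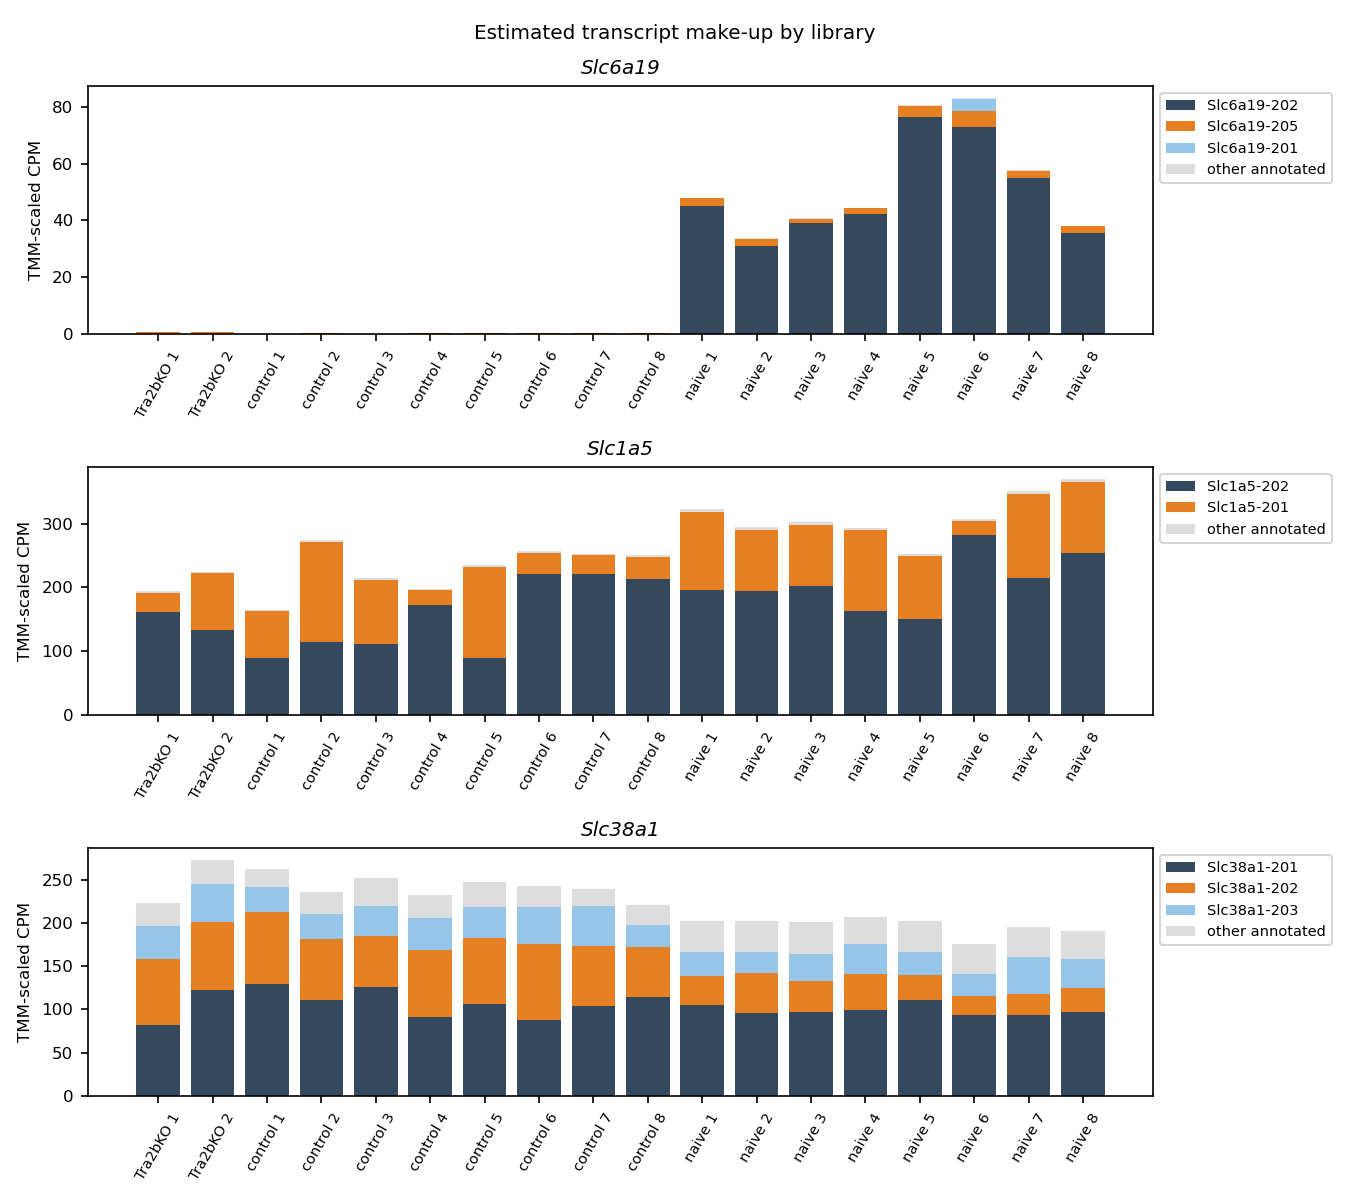
Estimated transcript make-up of Slc6a19, Slc1a5 and Slc38a1 in each library, as stacked bars in TMM-scaled CPM, with Tra2bKO, control and naive libraries from left to right and the remaining annotated transcripts in grey. Slc6a19-202 fills most of the naive bars and has an estimated count of 0 in the 10 stimulated libraries, the Slc1a5 split varies within every group, and Slc38a1-202 averages 77.7 and 72.9 CPM in Tra2bKO and control libraries against 32.3 CPM in naive libraries.

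Slc38a1 and Slc38a2 encode SNAT1 and SNAT2, which bring in glutamine and other small neutral amino acids together with sodium; SNAT2 is known to be induced when amino acids are short. Slc38a1 (chromosome 15, 96571418 to 96642913, minus strand) had 223 and 273 CPM in Tra2bKO libraries, against 220.5, 241 and 262 CPM in controls and 176, 202 and 207 CPM in naive libraries. The Tra2bKO libraries differed, the first lying near the low end of the control range and the second above all controls, and all stimulated libraries lay above all naive ones. Control against naive was 0.29 (SE 0.04, edgeR adjusted p = 5.2e-06) and Tra2bKO against naive 0.36 (SE 0.08, edgeR adjusted p = 0.0026). Without the second Tra2bKO library, Tra2bKO against naive was 0.23 (edgeR adjusted p = 0.0898). For Tra2bKO against control the value was 0.04 (SE 0.08, edgeR adjusted p = 0.763), and it changed sign without the second Tra2bKO library (-0.10).

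The 3 coding transcripts of Slc38a1 that held most counts differ in their first exon. Slc38a1-202, which starts at 96642128 to 96642250, held 29.0% and 34.2% of the gene's counts in Tra2bKO libraries, against 23.5 to 36.4% in controls and 12.2 to 23.1% in naive libraries. The stimulated and naive ranges did not overlap. Slc38a1-201, whose first exon lies at 96642491 to 96642913, held 40.8%, 44.9% and 50.4% on average in Tra2bKO, control and naive libraries. Slc38a1-203, with its first exon at 96641054 to 96641962, held 16.7%, 14.6% and 15.6%. These shares were not tested.

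Slc38a2 (chromosome 15, 96687392 to 96699730, minus strand) had 136 and 207 CPM in Tra2bKO libraries, against 121, 133 and 139 CPM in controls and 128, 147 and 168 CPM in naive libraries. The second Tra2bKO library lay above all others, and the first lay inside both other ranges. The log2 fold change for Tra2bKO against control was 0.38 (SE 0.11, edgeR adjusted p = 0.0358). It was 0.06 without the second Tra2bKO library (edgeR adjusted p = 0.772), and the call was also lost without any single one of controls 2, 4, 6, 7 and 8, at 0.36 to 0.38 (edgeR adjusted p = 0.0501 to 0.0598). Control against naive was -0.16 (SE 0.05, edgeR adjusted p = 0.00457), with overlapping ranges. Tra2bKO against naive, at 0.25, did not pass (SE 0.12, edgeR adjusted p = 0.126); it was 0.49 without the first Tra2bKO library (edgeR adjusted p = 0.00716). The main coding transcript Slc38a2-201 held 95.6%, 95.2% and 91.2% of the counts in Tra2bKO, control and naive libraries.

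Slc7a1 (CAT1, chromosome 5, 148327410 to 148399904, minus strand) imports arginine and lysine without a heavy chain. It had 57.2 and 77.3 CPM in Tra2bKO libraries, against 48.0, 53.0 and 58.1 CPM in controls and 33.8, 36.0 and 41.3 CPM in naive libraries. All stimulated libraries lay above all naive ones, and only the second Tra2bKO library lay above all controls. Controls exceeded naive libraries by 0.53 (SE 0.05, edgeR adjusted p = 7.76e-08), and Tra2bKO against naive was 0.91 (SE 0.10, edgeR adjusted p = 2.33e-05). The value for Tra2bKO against control was 0.35 (SE 0.10, edgeR adjusted p = 0.0408), and 0.13 without the second Tra2bKO library (edgeR adjusted p = 0.616). That call was also lost without any single one of controls 2, 3, 4, 5, 7 and 8, at 0.33 to 0.36 (edgeR adjusted p = 0.0549 to 0.0651).

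Genes with many annotated exonic bases differed between the Tra2bKO libraries. By that measure 4 of the transporters are long: Slc38a1 with 17236 bases, Slc7a11 with 13922, Slc7a1 with 11530 and Slc38a2 with 8838. These lengths, like those used below, count every annotated exon. The transcripts with most counts were shorter: 9223 bases for Slc7a11-201, 7179 for Slc7a1-201 and 4660 for Slc38a2-201. Slc38a1-201 and Slc38a1-202 have 7266 and 6966 bases. Over 1790 genes of at least 8 kb, the second Tra2bKO library exceeded the first by a median of 0.31 on the log2 scale, and the median log2 fold change against control was 0.22. For 2222 genes under 2 kb these medians were -0.10 and -0.19. In the fit corrected for exon length and GC content, Slc38a2 was 0.15 (edgeR adjusted p = 0.189) and Slc7a1 was 0.16 (edgeR adjusted p = 0.305). Slc38a1 was -0.22 (edgeR adjusted p = 0.114) and Slc7a11 -0.59 (edgeR adjusted p = 0.203) in that fit. Slc3a2 and Slc1a4, with 3529 and 3926 exonic bases, were 0.55 and 2.48 and kept their calls. The part of length in any of these differences was not tested.

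**Figure D4:**
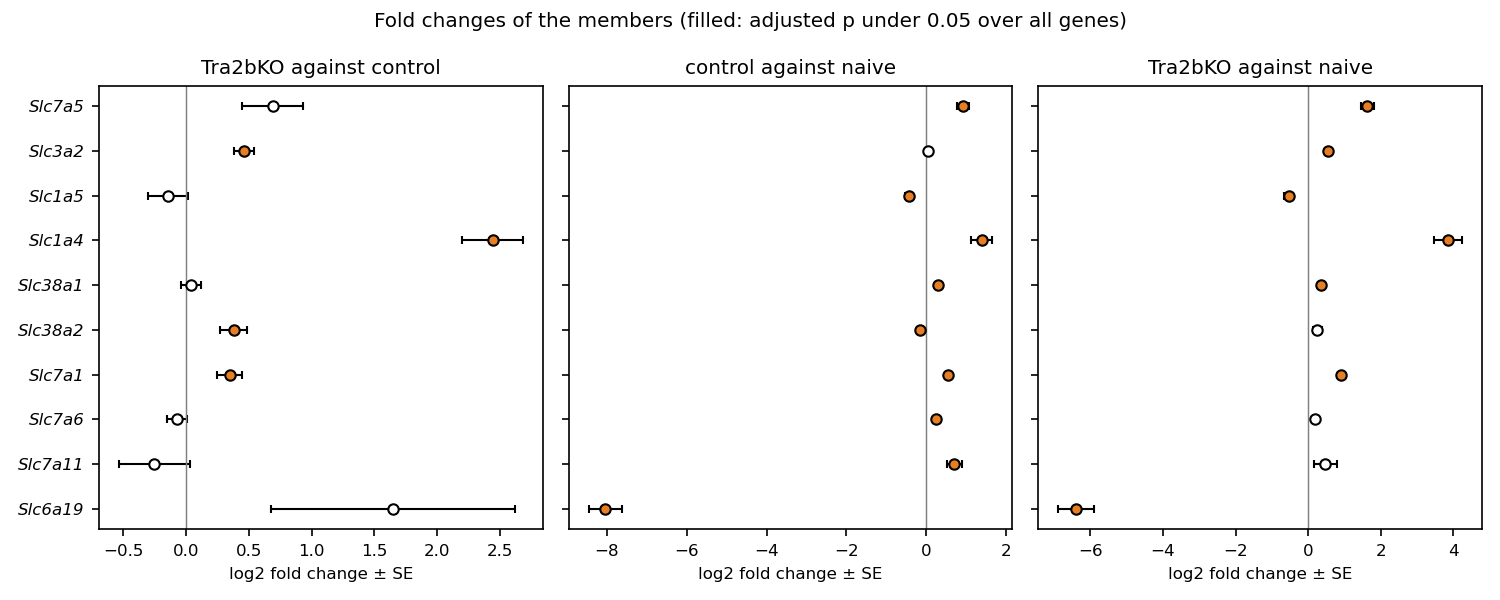
Log2 fold change of each transporter with its SE for Tra2bKO against control, control against naive and Tra2bKO against naive; filled points have an edgeR adjusted p under 0.05 over all genes. The panels have their own horizontal scales; Slc1a4 at 2.44 is the largest called value in the first, and Slc6a19 at -8.04 the largest in size in the second.

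Slc6a19 (B0AT1, chromosome 13, 73679745 to 73704865, minus strand), the sodium-driven carrier of neutral amino acids in gut and kidney, had a pattern unlike the other transporters. It had 0.578 and 0.615 CPM in Tra2bKO libraries, against 0, 0.148 and 0.418 CPM in controls and 33.8, 46.2 and 83.2 CPM in naive libraries. Stimulated and naive libraries were far apart, and 2 controls had 0 counts. Control against naive was -8.04 (SE 0.41, edgeR adjusted p = 2.09e-11) and Tra2bKO against naive -6.39 (SE 0.49, edgeR adjusted p = 1.34e-06). The Tra2bKO libraries held 45 and 56 counts and lay above all controls, which held 0 to 33 counts, but the log2 fold change of 1.65 did not pass the test (SE 0.97, edgeR adjusted p = 0.287).

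Little of the naive signal was assigned to the coding transcript. Slc6a19-202, a processed transcript without an annotated coding sequence, accounted for 93.5% ± 2.63 of Slc6a19 in naive libraries (SD, n = 8), 31231 counts in all. It starts inside the gene, at an exon of its own of 148 bases (73692489 to 73692636), whereas the coding Slc6a19-201 starts upstream at 73700432 to 73700780. The coding transcript had counts only in naive libraries 5 and 6, with 4 and 391. The estimated count of Slc6a19-202 was 0 in all 10 stimulated libraries, against a naive mean of 49.6 CPM. Since reads are divided by estimate between overlapping transcripts, such a 0 is an assignment and no fold is drawn from it; over the whole gene the fitted level was 83.9-fold lower in Tra2bKO and 264-fold lower in control libraries than in naive libraries. All that remained in stimulated cells was assigned to Slc6a19-205, a retained-intron transcript, which averaged 0.596 ± 0.0263 CPM in Tra2bKO (n = 2), 0.173 ± 0.150 CPM in control and 2.87 ± 1.21 CPM in naive libraries (SD, n = 8 each).

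The start of Slc6a19-202 is shown because most naive counts were assigned to the transcript that begins there (RefSeq, GRCm38.p6, chr13:73692587-73692886, minus strand). Capitals mark the first 50 bases of the transcript.
Slc6a19: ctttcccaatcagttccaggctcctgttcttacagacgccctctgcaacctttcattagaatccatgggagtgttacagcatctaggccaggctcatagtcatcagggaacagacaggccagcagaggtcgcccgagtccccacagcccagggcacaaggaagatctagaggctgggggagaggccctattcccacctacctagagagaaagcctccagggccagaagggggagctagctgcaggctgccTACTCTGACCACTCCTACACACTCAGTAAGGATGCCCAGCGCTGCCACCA
This window held neither TGATGCAA nor CACGTG. Slc6a19os, an antisense gene that overlaps Slc6a19, averaged 0 CPM in Tra2bKO, 0.0274 CPM in control and 0.407 CPM in naive libraries. The sources used here do not say whether counting used strand, so reads of the 2 genes may not be separable.

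Per kilobase of transcript, the order of the transporters differed between the groups. Slc3a2 ranked first in Tra2bKO and control libraries at 120 and 86.4 CPM per kb, and second in naive libraries at 85.8. Slc1a5 ranked second in Tra2bKO and control libraries at 77.9 and 85.7 CPM per kb, and first in naive libraries at 116. In controls the 2 leading genes did not differ beyond their spread (86.4 ± 8.44 and 85.7 ± 13.1 CPM per kb, SD, n = 8). Slc7a5 took the third place in Tra2bKO libraries at 45.8 CPM per kb, beside Slc38a1 at 45.4, the fourth in controls at 28.5, beside Slc38a2 at 28.0, and the fifth in naive libraries at 15.2, where Slc6a19 and Slc7a6 followed at 14.96 and 14.95. Slc1a4, for all its change, reached 4.28 CPM per kb in Tra2bKO libraries, against 0.782 in controls and 0.294 in naive libraries, and ranked as number 8 in Tra2bKO and control libraries. Slc7a11 was lowest or next to lowest in every group, at 0.0995, 0.120 and 0.0772 CPM per kb in Tra2bKO, control and naive libraries.

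Genes with the closest patterns were sought among 13207 genes by the root mean square difference of centred log2(CPM + 1) profiles over the 18 libraries, for 5 of the transporters. For Slc3a2 they were Idh3b (0.0892), Qpctl (0.0974) and Gpr50 (0.0993, a gene near 0 CPM); Idh3b, a subunit of mitochondrial isocitrate dehydrogenase, averaged 232, 183 and 175 CPM in Tra2bKO, control and naive libraries. For Slc7a5 the nearest were Nudt4 (0.192), Ptprs (0.211) and Smarca5 (0.220). For Slc7a6 they were Snd1 (0.0651), Bud13 (0.0718) and Ythdf2 (0.0729). Tomm7 (0.104), Tmem256 (0.105) and Ndufa2 (0.115) were nearest to Slc7a11. Cnr2 (0.343), Ifit1bl1 (0.358) and Klra7 (0.387) were nearest to Slc6a19; Cnr2, the cannabinoid receptor of immune cells, averaged 1.03, 0.639 and 59.3 CPM in the 3 groups. Flat or low profiles match many genes closely, and the profiles of Slc3a2, Slc7a6 and Slc7a11 were flat, with a root mean square of 0.177, 0.133 and 0.207 against 0.632 for Slc7a5 and 2.69 for Slc6a19. The likeness values are therefore not comparable between transporters.

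The remaining amino acid transporters were taken from a list of 49 genes, 48 of them matched. For Tra2bKO against control, 3 of 25 tested genes were higher and 1 was lower, near the 14.9% called over all genes. The median log2 fold change was 0.42 against -0.01 for all genes. Above that median lay Slc3a1 (2.86), Slc7a4 (1.73), Slc6a20a (1.63), Slc1a3 (1.09) and Slc6a20b (0.95), none called and each averaging at most 0.31 CPM in either group. Slc7a8, at 0.196 and 0.442 CPM, went the other way (-1.08, not called). The median is therefore not read as a rise of the list. The cationic amino acid carrier Slc7a3 had 21.7 and 21.4 CPM in Tra2bKO libraries and 2.27 ± 0.908 CPM in controls (n = 8), apart in every library (3.24, SE 0.31, edgeR adjusted p = 0.000143). Slc38a9, the lysosomal arginine sensor, had 17.8 and 20.1 CPM in Tra2bKO libraries and 13.7 ± 1.23 CPM in controls (0.48, SE 0.12, edgeR adjusted p = 0.0186), and lost its call without the second Tra2bKO library (edgeR adjusted p = 0.214). Slc6a9, the glycine carrier, was also called higher from a low level, at 2.82 ± 0.660 CPM in Tra2bKO and 0.237 ± 0.146 CPM in control libraries. Slc15a3, a lysosomal carrier of histidine and small peptides, was lower, at 1.24 ± 0.323 CPM in Tra2bKO and 5.66 ± 1.45 CPM in control libraries (-2.16, SE 0.34, edgeR adjusted p = 0.00214).

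For control against naive, 5 of 21 tested genes of that list were higher and 11 were lower, where 71.5% of all genes were called, with a median of -0.36 against -0.08 for all genes. Slc43a3, a family member known to carry purine bases, averaged 132 CPM in control and 44.1 CPM in naive libraries (1.58), and Slc15a3 rose by 2.96. Slc43a2 (LAT4), which lets large neutral amino acids pass without exchange, averaged 27.8 and 46.8 CPM (-0.75). Slc38a9 (-1.02), the cystine exporter of lysosomes Ctns (-1.04) and Slc36a1 (-0.71) were lower as well. Tra2bKO against naive gave 6 of 26 higher and 6 lower, near the 44.7% called over all genes.

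**Figure D5:**
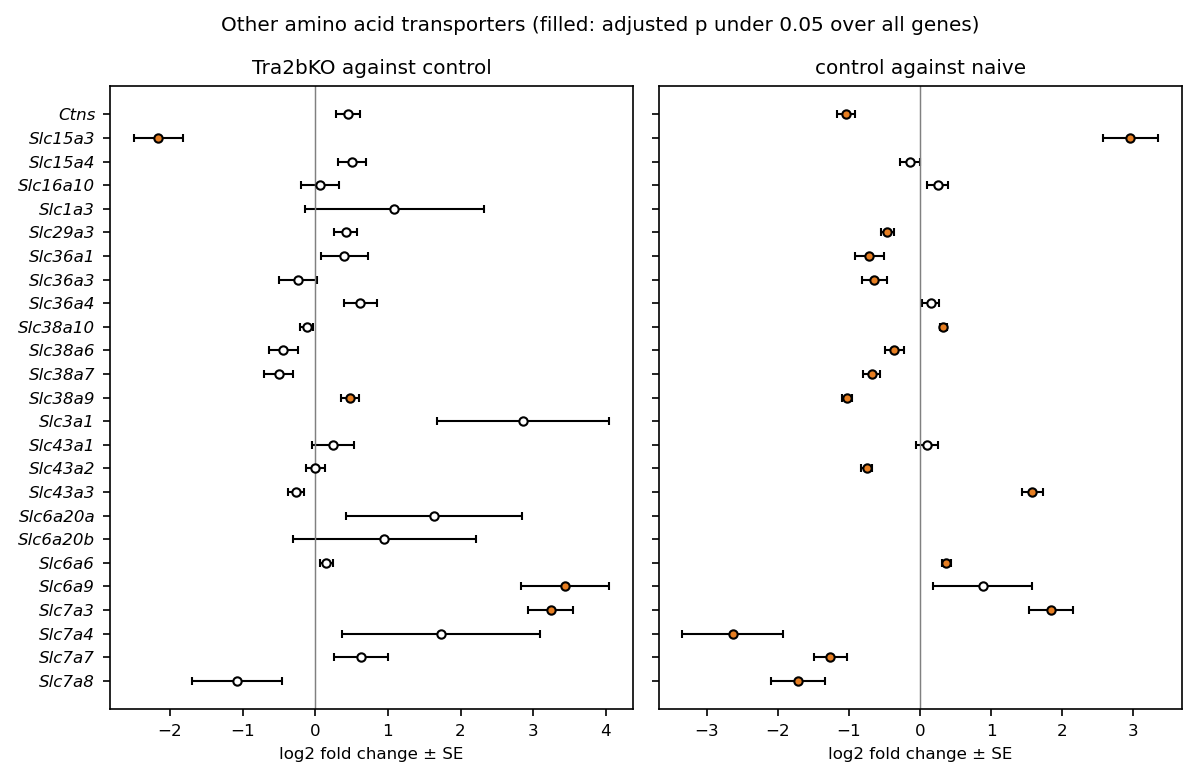
Log2 fold change with SE of the other amino acid transporters tested for Tra2bKO against control (left) and control against naive (right); filled points have an edgeR adjusted p under 0.05 over all genes, and the panels have their own scales. In the left panel Slc6a9, Slc7a3 at 3.24, Slc38a9 at 0.48 and Slc15a3 at -2.16 are filled.

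Carriers of the mitochondrial membrane gave 1 of 14 higher and 2 lower for Tra2bKO against control, where 14.9% of all genes were called. The ornithine carrier Slc25a15 averaged 18.1 CPM in Tra2bKO and 11.1 CPM in control libraries (0.71, edgeR adjusted p = 0.00436), the aspartate and glutamate carrier Slc25a13 33.7 and 49.8 CPM (-0.56, edgeR adjusted p = 0.0087), and Slc25a29, a carrier of basic amino acids, 1.31 and 3.94 CPM (-1.57, edgeR adjusted p = 0.00263). Without the second Tra2bKO library all 3 missed the threshold (edgeR adjusted p = 0.112, 0.0876 and 0.0532). For control against naive, with 71.5% of all genes called, 4 of 13 were higher, among them Slc25a13 (1.55) and the serine carrier Sfxn1 (0.82). In the same comparison 6 were lower, among them Sfxn3 (-1.28), Slc25a29 (-1.18), the glutamate carrier Slc25a22 (-0.93) and Sfxn2 (-0.81).

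Of 36 genes through which mTORC1 senses amino acids, 3 were higher and 7 lower in Tra2bKO against control libraries, beside 14.9% called over all genes. Sesn2, a leucine sensor and target of ATF4, had 38.2 ± 5.25 CPM in Tra2bKO and 23.7 ± 3.71 CPM in control libraries (0.69, edgeR adjusted p = 0.0119), a call lost without the second Tra2bKO library (0.55, edgeR adjusted p = 0.185). Mtor itself had 32.2 and 69.3 CPM in the Tra2bKO libraries and 24.2 to 31.6 CPM in controls (0.88, edgeR adjusted p = 0.0111), and only 0.23 without the second Tra2bKO library (edgeR adjusted p = 0.479). Fnip1 was higher (0.67), and the leucine sensor Sar1b (-0.55), the GTPase Rraga (-0.54) and the GATOR1 subunit Nprl2 (-0.44) were lower; of these 4, only Sar1b kept its call without the second Tra2bKO library. Between control and naive libraries 12 of the 36 were higher and 17 lower, beside 71.5% called over all genes, with Sesn1 (-2.24), Sesn3 (-1.30), Castor2 (-1.29), Rptor (-1.16) and Wdr59 (-0.99) among the lower and Tbc1d7 (1.18) among the higher.

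A further list was drawn up around regulators of these transporters, and whether its genes act on them here was not tested. Of its 17 tested genes, 4 were higher and 1 lower in Tra2bKO against control libraries (14.9% of all genes called). Atf4 had 190.4 and 172 CPM in Tra2bKO libraries and 119 to 132 CPM in controls (0.54, SE 0.06, edgeR adjusted p = 0.000462). Its target Trib3 had 14.2 and 15.3 CPM and 2.07 to 4.66 CPM (1.93, SE 0.20, edgeR adjusted p = 0.000231). Eif2ak4, which encodes GCN2, was higher by 0.58 (edgeR adjusted p = 0.0126) but not without the second Tra2bKO library (0.34, edgeR adjusted p = 0.293). Rc3h1, which encodes the RNA-binding repressor Roquin-1, was higher by 0.87 (edgeR adjusted p = 0.000696). Myc, a known activator of Slc7a5 and Slc1a5, averaged 83.0 ± 5.14 CPM in Tra2bKO and 114 ± 12.9 CPM in control libraries (-0.45, edgeR adjusted p = 0.0239) and did not pass without either Tra2bKO library.

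For control against naive, 8 of 17 tested genes of that list were higher and 5 lower, where 71.5% of all genes were called. Hif1a averaged 370 CPM in control and 175 CPM in naive libraries (1.08), Trib3 rose by 0.89 and Cebpg, a partner of ATF4, by 0.56. Ddit3 (-1.43), which encodes the stress factor CHOP, Nfe2l2 (-0.91), which encodes the oxidative stress factor NRF2, and Rc3h1 (-0.58) were lower.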

How the data were processed

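Libraries of polyA RNA had been made with a QIAGEN miRNeasy Micro kit and a SMARTer ultra-low input kit, per the labels' protocols. The deposited tables hold estimated counts per gene and per transcript, written as whole numbers. The submitters' processing notes name StringTie 2.1.0, DESeq2 1.30.1, R 4.0.5, the aligner STAR 2.7.1a and SAMtools 1.9, and the builds mm39 and mm10 with no role for either. All 55536 Ensembl identifiers are in GENCODE M21, so positions are in GRCm38. Rows with numeric identifiers (26248 of 81881, 0.0513 to 0.132% of counts) and 97 spike-in rows with 0 counts name no gene and were left out. The 18 columns were matched to the labels.

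Each pair of groups was fitted on the whole table with edgeR 4.0.16 in R 4.3.3 (filterByExpr minimum count 10, TMM within the comparison, robust quasi-likelihood test, prior count 2) and adjusted by Benjamini-Hochberg over all genes tested; calls are at 0.05. The procedure was tested on simulated data with 66 or 67 genes changed at each fold size, among 16710 to 19051 genes. For Tra2bKO against control it recovered 17.9% of 1.5-fold, 35.8% of 2-fold and 65.2% of 4-fold changes. The same shares were 53.7%, 76.1% and 89.4% for control against naive, and 16.4%, 46.3% and 66.7% for Tra2bKO against naive. In the data themselves 14.9%, 71.5% and 44.7% of genes were called in these comparisons, far more than were changed in the simulation. The adjustment depends on that share, so the simulated rates do not measure recovery in these data. A gene that did not pass may still differ. Levels are TMM-scaled CPM over all 18 libraries. Transcript counts were divided by transcript length for levels between genes and by the gene's sum for shares of at least 10% in any group. Alternatives were DESeq2 1.42.0, voom of limma 3.58.1 with quality weights, other scalings, no filter, 1 fit of all groups, a replicate block, controls 3 to 8, a correction for exon length and GC content, and each library left out.

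The transporters and all gene lists were chosen with earlier results of these data known. All 10 transporters are named. From each list, the text names up to 6 called genes with the largest fold changes, above a mean log2 CPM of 1, with 3 nearest genes for 5 transporters; Slc6a9 was added after its values were seen.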

Additional observations from a re-analysis of the deposited data

Results flagged for a closer look

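None of the 10 transporters had a library that stood apart from its group of 8. The groups of 8 libraries examined, over the transporters and the listed genes named, numbered 102. Of these, 8 had a library whose gap to the nearest other was large for the range of the group. A chance rate of about 1 in 20 would hold only for independent groups with normally distributed levels. These groups share their libraries, so the count is not read against that rate. Control 6 was lowest for Ctns at 4.54 CPM (others 6.41 to 7.44), and control 4 was highest for Ddit3 at 10.4 CPM (others 6.31 to 7.78) and for Wdr59 at 9.60 CPM (others 5.79 to 7.58). Control 1 was highest for Sar1b at 146 CPM (others 125 to 133) and lowest for Slc38a7 at 3.78 CPM (others 5.48 to 6.88). Control 2 was lowest for Trib3 at 2.07 CPM (others 3.59 to 4.66). Naive library 5 was highest for Nfe2l2 at 118 CPM (others 79.7 to 97.5), and naive library 2 was lowest for Slc25a22 at 55.0 CPM (others 70.8 to 83.1).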

How the results depend on the processing

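For Tra2bKO against control, 4 transporters were called, 2 with voom, and 2 to 4 when single libraries were left out; 2 remained in number without Tra2bKO 2 and without control 2, 4, 7 or 8. With the replicate block 0 were called among the transporters and 0 among all genes. Slc3a2 was then 0.39 (edgeR adjusted p = 0.18) and Slc1a4 2.7 (edgeR adjusted p = 0.068). Controls 3 to 8 have no same-numbered Tra2bKO library, so that fit has almost nothing left to measure spread. No conclusion is drawn from its lost calls. After each gene's group mean was removed, same-numbered libraries correlated at 0.115 and 0.147 in this comparison. Between control and naive they correlated at -0.115 to 0.188, highest with the own number for 1 of 8. With 2 Tra2bKO libraries the remainders are mirror images, so 0.115 and 0.147 are not separate checks and cannot settle pairing. The labels do not say what a number stands for, so the numbers are not taken to pair libraries. The block left 9 calls for control against naive and 5 in place of 7 for Tra2bKO against naive. Outside the block, Slc1a4 stayed between 2.05 and 2.74 and Slc3a2 between 0.43 and 0.55, always called. Slc38a2 and Slc7a1 also lost their calls with voom (adjusted p = 0.0726 and 0.0733), Slc38a2 with controls 3 to 8 only (0.0625) and Slc7a1 with no low-count filter (0.0572). Signs changed for Slc38a1 against control with the block (-0.02), the length and GC correction (-0.22) and without Tra2bKO 2 (-0.10; -0.10 to 0.17 over single libraries), for Slc7a11 against control without Tra2bKO 1 (0.04; -0.64 to 0.04), for Slc3a2 in control against naive with total counts only (-0.04), and for Slc38a2 in Tra2bKO against naive without Tra2bKO 2 (-0.07; -0.07 to 0.49); none of these was a call, and the causes were not tested. Control against naive kept 8 or 9 calls throughout, Slc38a2 being lost with no filter, 1 fit of all groups or controls 3 to 8 only. Total counts alone moved the median of all genes in that comparison to -0.18, against -0.08. Leaving out Tra2bKO 2 cut the calls over all genes to 304 higher and 347 lower. With 2 Tra2bKO libraries the group's spread is barely measured, and 54 to 114 counts limit Slc7a11 in stimulated cells.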
